A study of Mus musculus with 8 samples.

Results

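The data cover 9 heat shock genes in smooth muscle cells sorted from the ascending aorta of mice. Hspb1, Hspb6, Hspb7, Hspb8 and Cryab encode small heat shock proteins, and Hspa1a, Hspa1b, Hspa8 and Hspa2 encode proteins of the HSP70 family. They were taken by symbol, through the Ensembl identifiers of the 6 deposited tables with the version left off, and are 9 of the 11447 gene identifiers in those tables. All 9 carried values in all 8 libraries, and all 9 were among the 9253 genes that passed the filter on low values for the tests over libraries (a mean share of cells with a UMI of 5% or more).

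Small heat shock proteins hold unfolding proteins in a soluble state without using ATP, and in muscle they bind to the contractile filaments and the cytoskeleton. HSP70 proteins use ATP to refold such clients with the help of J-domain proteins (HSP40) and nucleotide exchange factors such as Bag3. The stress-inducible members are switched on by heat shock factor 1 through heat shock elements, arrays of GAA units in alternating orientation, and they are also a known mark of enzymatic tissue digestion in single-cell work.

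The mice were of 2 genotypes, Apoe-/- and TGFBetaRiSMC-Apoe, the second being Apoe mice with a knockout of the TGF-beta receptor gene Tgfbr2 in smooth muscle (called KO here). Each genotype had a library from mice on the diet labelled ND and libraries after 1, 2 and 4 months on a high fat diet (HFD), named here Apoe ND, Apoe 1M, KO 4M and so on. GFP-positive cells sorted from digested aorta were profiled with a 10x Genomics Chromium system. Each group was thus 1 library. The driver of the knockout, the source of GFP, and the number and age of animals per library are not stated in the labels used here. P-values over libraries therefore measure how libraries scatter around a fitted model, and single-diet values have no replicate. Levels are in CPM, the unique molecular identifiers (UMIs) of a gene per 1000000 UMIs of the library, and intervals on them (exact Poisson, 95%) cover counting error only. A lower CPM can mean fewer copies of its RNA or more RNA of other genes. These values were compared between libraries and not between genes.

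The libraries held 1127 to 2659 cells and 9407669 to 19720109 UMIs, with a median of 6966 to 10988 UMIs per cell. Library pairs shared 0 to 9 cell barcodes, at most 0.614% of the smaller library. Tgfbr2 had values in 1 table only, the Apoe time course, so the knockout could not be checked across genotypes. KO 4M stood apart from the smooth muscle label: its 8 smooth muscle markers (Acta2, Myh11, Cnn1 and others) summed to 1490 CPM against 23284 to 43685 in the other 7 libraries, and its median cell showed 2 of the 8 markers against 8 of 8 elsewhere. The list of 18 chondrocyte and bone genes summed to 45513 CPM in KO 4M (17 of 18 listed, Matn1 at 0), 6310 in Apoe 4M and 3153 in KO 2M (10 of 18 listed in each), and 45.6 to 87.9 in the other 5 libraries (2 or 3 listed). Fibroblast markers summed to 11935 in KO 4M and to 48.2 to 3860 elsewhere. Of 10 macrophage markers 6 were listed in KO 1M, at 454.7 CPM in sum, where 22 of 1302 cells showed at least 3 markers of another cell type. In the other libraries macrophage markers summed to 0 to 27.6 CPM. At most 2 markers were listed there for any cell type counted in this way, so no cell could show 3. A gene seen in fewer than about 5% of a library's cells is listed at 0. Cell types rarer than that could therefore go unseen here. Of 7 endothelial markers only Pecam1 was listed, at 30.2 to 69.3 CPM in the libraries other than KO 4M, and all lymphocyte and erythrocyte markers were at 0. The part of these shifts in the results on heat shock genes was not tested, and results that rest on KO 4M are given with and without it.

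The sequence just before the start of both inducible HSP70 genes, and of 2 of the small heat shock genes, holds a pair of heat shock units. Of the 9 genes, 7 had a RefSeq promoter window (GRCm38.p6, from 250 bases before to 50 bases after the start; Cryab and Hspa8 had none). Windows were searched for GAANNTTC, a pair of heat shock units facing each other, which reads the same on both strands. The match was present for 5 of the 7 genes, at positions -117 and -97 in Hspb1, -120 in 1 of 2 windows of Hspb6, -104 in Hspa1a and in Hspa1b, and 3 in Hspb8 (first base of the match, counted from the start). Hspb7 and Hspa2 had no match. Over all 32851 windows 7.86% held GAANNTTC. The pair facing apart, TTCNNGAA, was in 8.52% of all windows, the CArG box of smooth muscle genes in 1.63%, and neither was in a window of these 9 genes. The 2 arrangements overlap where 3 alternating units follow each other, which was the case in 0.603% of all windows and in 0 windows of these 9 genes. The 250 bases before the start of Hspa1a and Hspa1b are shown because 247 of 250 positions (98.8%) are the same, and those of Hspb1 and Hspb6 because they hold the pair in small heat shock genes. They run 5′ to 3′ on the strand of the gene, with GAANNTTC in capitals: Hspa1a at chr17:34972157-34972406 (minus strand), Hspa1b at chr17:34959239-34959488 (minus), Hspb1 at chr5:135887669-135887918 (plus) and Hspb6 at chr7:30553051-30553300 (plus).
Hspa1a: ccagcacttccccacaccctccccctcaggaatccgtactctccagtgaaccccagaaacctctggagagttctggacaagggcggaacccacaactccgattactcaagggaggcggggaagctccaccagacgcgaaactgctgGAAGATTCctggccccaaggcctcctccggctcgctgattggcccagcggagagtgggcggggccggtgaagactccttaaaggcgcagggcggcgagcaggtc
Hspa1b: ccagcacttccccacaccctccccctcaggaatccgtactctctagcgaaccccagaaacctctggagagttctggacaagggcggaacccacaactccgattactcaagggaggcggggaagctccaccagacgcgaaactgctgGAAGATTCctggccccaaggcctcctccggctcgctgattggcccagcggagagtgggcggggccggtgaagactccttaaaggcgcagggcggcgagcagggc
Hspb1: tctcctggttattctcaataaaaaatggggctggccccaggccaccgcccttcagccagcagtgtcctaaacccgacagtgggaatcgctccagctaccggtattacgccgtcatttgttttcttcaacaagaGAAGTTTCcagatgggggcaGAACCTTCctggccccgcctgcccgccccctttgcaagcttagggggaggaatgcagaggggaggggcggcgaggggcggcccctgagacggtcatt
Hspb6: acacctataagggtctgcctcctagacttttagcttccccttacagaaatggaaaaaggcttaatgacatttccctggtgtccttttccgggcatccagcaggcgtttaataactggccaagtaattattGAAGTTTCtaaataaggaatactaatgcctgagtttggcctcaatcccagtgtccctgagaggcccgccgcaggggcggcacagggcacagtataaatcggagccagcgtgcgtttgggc

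Hspa1a and Hspa1b lie 9951 bases apart on chromosome 17 and are near-identical copies: their transcripts matched at 92.8% of aligned bases, but at 63.7% over the last 300 bases. The handling of reads that fit both copies is unknown here, so the split between these 2 genes is uncertain. Cryab overlaps Hspb2, another small heat shock gene, over 1030 bases on the opposite strand. Hspa1a overlaps Gm20481 on the opposite strand over 2225 bases, and Hspb6 overlaps Proser3 and Lin37 by 122 and 3 bases. Reads of such pairs can only be told apart if strand was used in counting, which is also unknown here.

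Among the small heat shock genes, 5 of 5 had their lowest level in KO 4M, as had 48.8% of the 7994 genes listed in all 8 libraries. Hspb7, a small heat shock protein of striated and smooth muscle that binds actin-crosslinking filamin, showed the widest range. Apoe mice had 334, 294, 329.9 and 358 CPM on ND and after 1, 2 and 4 months of HFD. KO mice had 296, 316, 433 and 23.6 CPM at the same times. Without KO 4M the 7 libraries lay within 294 to 433, and KO 4M (interval 21.4 to 25.9) was 18.3-fold below the highest, KO 2M.

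Hspb6 (HSP20), a target of cyclic nucleotide kinases in relaxing smooth muscle, was lower with each longer time on HFD in both genotypes. The Apoe libraries read 555, 479, 450.2 and 323 CPM from ND to 4 months. The KO libraries read 841, 626, 531 and 65.8. On ND, 1M and 2M the KO value was the higher one, and at 4M the lower one, and no 2 neighbours in the order of the 8 levels had overlapping intervals.

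Hspb1 (HSP27), which regulates actin filament dynamics when phosphorylated, gave the values 2402, 2531, 2076 and 1627 CPM in Apoe and 2319, 2339, 2488 and 494 in KO. The 3 KO libraries other than 4M lay inside the Apoe range. KO ND could not be told from KO 1M, nor KO 2M from Apoe 1M, within their intervals.

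Hspb8 (HSP22), the partner of Bag3 in chaperone-assisted autophagy, gave 361, 318, 321 and 182 CPM in Apoe and 256, 265, 257 and 66.1 in KO. The KO library was lower on each of the 4 diets, and the 4M library was the lowest of its genotype in both. The 3 other KO libraries could not be told apart within their intervals, and neither could Apoe 1M and Apoe 2M.

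Cryab (alphaB-crystallin), which protects desmin and actin filaments, gave 422, 497, 489 and 400.4 CPM in Apoe. The KO values were 568, 558, 658 and 214. Without KO 4M the KO libraries were all above the 4 Apoe libraries.

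Among the HSP70 genes, Hspa1a and Hspa2 were also lowest in KO 4M, whereas Hspa1b and Hspa8 were not. Hspa1a and Hspa1b encode the inducible HSP70, with the same protein function. Hspa1a read 956, 664, 496 and 752 CPM in the Apoe libraries and 685, 575, 569 and 284 in the KO libraries. Hspa1b read 135, 90.1, 66.0 and 156 in Apoe and 118, 77.3, 62.5 and 75.5 in KO. In Apoe both genes were lowest at 2M and stood higher again at 4M, with Hspa1b highest of all 8 libraries there. In KO, Hspa1a was lowest at 4M, whereas Hspa1b was lowest at 2M and not distinguishable from Apoe 2M within intervals.

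Hspa8 (HSC70), the constitutive HSP70 of the cytosol, varied least among the 9, by 1.77-fold from the lowest to the highest library. It read 2266, 2515, 2538 and 1432 CPM in Apoe and 1893, 2025, 1849 and 1482 in KO. Its lowest library was Apoe 4M, and KO 4M came next. Hspa2, an HSP70 best known from male germ cells, read 268, 272, 254 and 172 in Apoe and 144, 183, 135 and 47.6 in KO. KO was the lower genotype on all 4 diets, but Apoe 4M and KO 1M overlapped within their intervals.

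**Figure D1:**
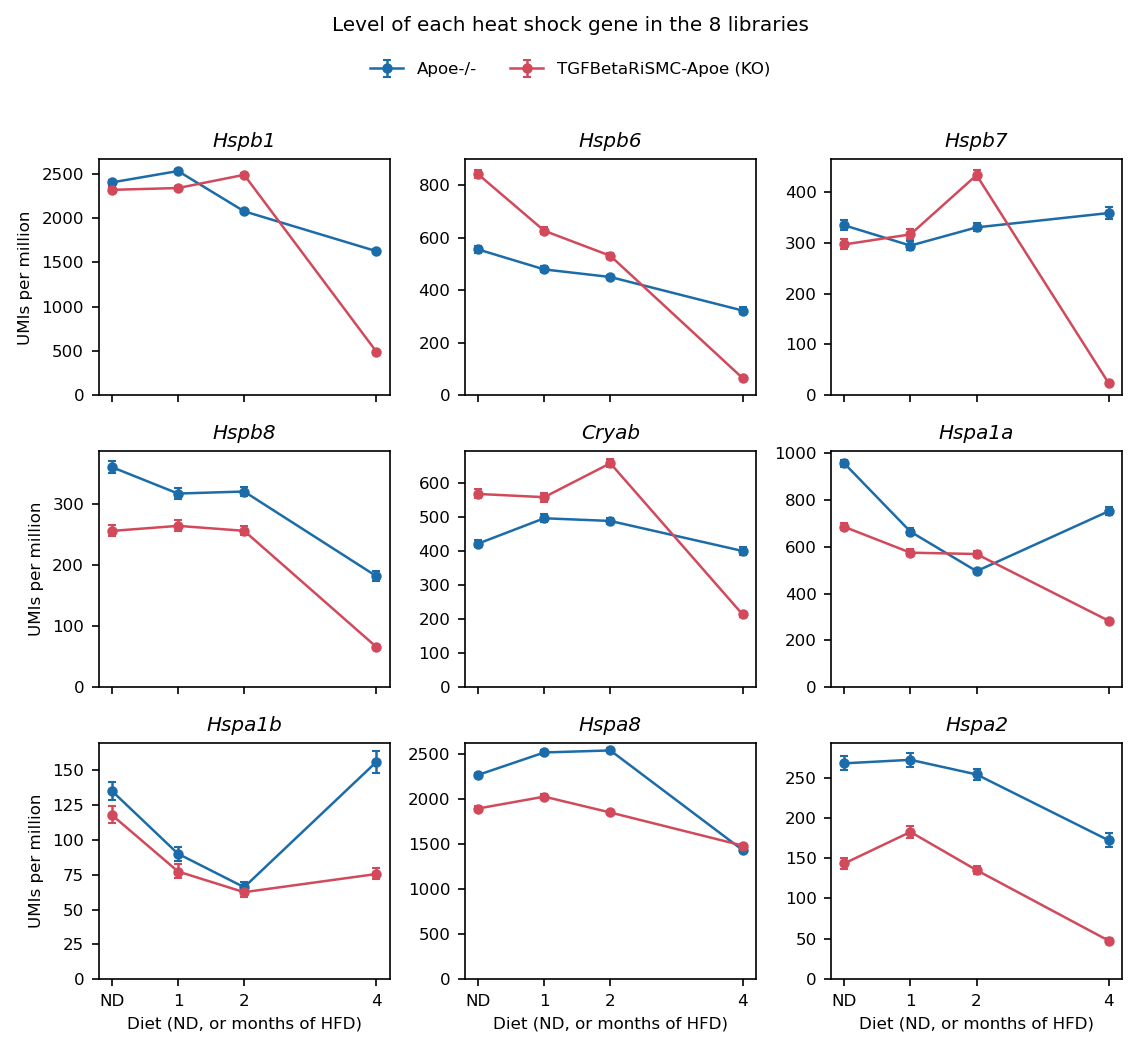
Level of each gene in CPM (UMIs per 1000000; y axis, from 0) against diet (x axis, ND or months of HFD), 1 point per library, with Apoe-/- in blue and KO in red and exact Poisson 95% intervals as bars. KO 4M is the lowest point for 7 of 9 genes, with Hspb7 at 23.6 against 294 or more elsewhere, whereas Hspa8 is lowest in Apoe 4M and Hspa1b in KO 2M.

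KO 4M was the lowest library for 7 of the 9 genes, where the same held for 48.8% of the 7994 genes listed in all 8 libraries. For 0 of 9 genes did the 2 genotypes fail to overlap over their 4 libraries, against 6.89% of those 7994 genes with KO lower throughout and 2.55% with KO higher.

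KO 4M also had the lowest share of cells with at least 1 UMI for 8 of the 9 genes, Hspa8 being the exception. For Hspa1b the share in KO 4M was 31.2% (interval 28.9% to 33.6%). KO 2M at 31.6% and Apoe 2M at 31.7% lay inside that interval, so these libraries could not be told apart for Hspa1b. The lowest library by share of cells was not counted over all genes, so this count has no background. Hspb7 was seen in 77.7% to 87.9% of cells in 7 libraries and in 12.5% in KO 4M. After every cell was thinned to 2900 UMIs, with 0 cells left out, the shares were 53.6% to 65.9% and 6.21%. The tenth of cells with the most Hspb7 held 90.7% of its UMIs in KO 4M and 28.8% to 35.1% elsewhere. The Hspb7 UMIs of KO 4M thus sat in a small share of its cells.

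The other low genes of KO 4M were seen in more of its cells. In that library, after thinning, Hspb6 was seen in 14.5% of cells (55.1% to 87.0% elsewhere), Hspa2 in 13.6% (33.3% to 53.5%), Hspb8 in 17.2% (38.5% to 60.5%), Hspa1a in 31.7% (59.8% to 79.9%) and Cryab in 34.1% (62.7% to 77.4%). Hspb1 was seen in 52.8% of thinned KO 4M cells and in 92.5% to 98.9% elsewhere. Hspa8 stayed at 94.7% there, within its range of 93.4% to 99.2% in the other libraries. Hspa1b was seen in 15.2% of thinned KO 4M cells, near the 15.4% of KO 2M and the 15.5% of Apoe 2M. No cell type in these sorted libraries serves as one that lacks these genes, so no background share from free RNA could be set beside these shares.

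All 5 small heat shock genes were seen together in 65.9% to 72.0% of cells on ND and after 1 month, in 56.3% of Apoe 2M, 59.3% of KO 2M and 40.4% of Apoe 4M cells, and in 3.74% of KO 4M cells. These shares are at the cells' own depth, which was greatest in KO 4M. Depth was least in Apoe 4M, Apoe 2M and KO 2M (medians of 6966, 7220 and 7631 UMIs per cell), and its part in their lower shares was not tested. In KO 4M, 85 of 1577 cells (5.39%) had none of the 5, whereas this held for 0 cells in the other 7 libraries.

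**Figure D2:**
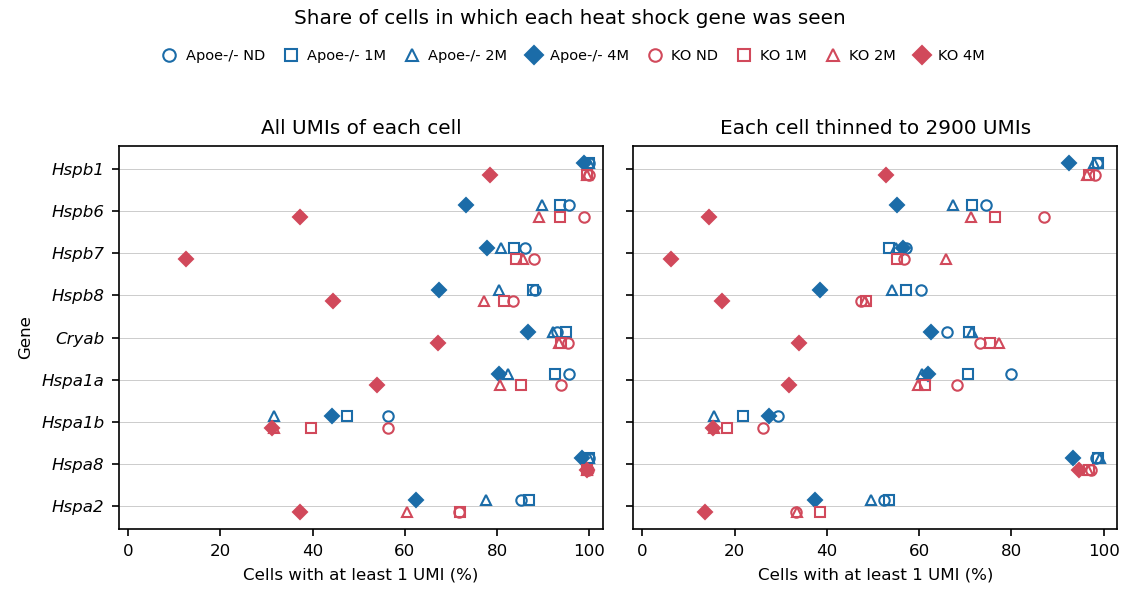
Share of cells with at least 1 UMI of each gene (x axis, percent), at each cell's own depth (left) and with each cell thinned to 2900 UMIs (right). Each symbol is a library, blue for Apoe-/- and red for KO, filled for 4M; the filled red symbol of Hspb7 lies at 12.5% (left) and 6.21% (right), far below the others, while Hspa8 lies at 93.4% or more in all.

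The first comparison, KO against Apoe with all diets together, asked what loss of Tgfbr2 in smooth muscle changed. It was fitted with limma on the mean deposited log2 value of each library, with diet as a factor, and effects are differences of these means with Benjamini-Hochberg adjustment over the 9253 genes. Of the 9 genes, 1 passed the threshold of 0.05, against 0.151% of all genes (14 of 9253; 0.0216% higher and 0.130% lower in KO). Hspa2 was lower in KO by -0.48 ± 0.03 (SE, 4 diets; adjusted p = 0.0307 by limma), and the KO value was the lower one on 4 of 4 diets. Hspb8 was next, at -0.28 ± 0.06 (adjusted p = 0.208). The median of the 9 genes was -0.26 and that of all genes 0.01. In the same fit 18 of 18 immediate-early stress genes (Fos, Jun and others) had estimates below 0 (median -0.40), as had 15 of 18 contractile genes (median -0.46), whereas 16 of 16 chondrocyte and bone genes had estimates above 0 (median 0.71). For the chondrocyte and bone genes that were listed in KO libraries only, an estimate above 0 was fixed in advance. The part of the shifts of these lists in the Hspa2 difference was not tested.

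Without KO 4M the Hspa2 difference was -0.46 with an adjusted p of 0.0243, over a range of 0.00946 to 0.369 across its 13 alternatives. The call was lost with UMIs summed per library, without and with trimmed-mean factors (-1.05 and -0.98, adjusted p = 0.369 and 0.359), with thinned cells (-0.26, adjusted p = 0.0843), and with any 1 of the ND, 1M or 2M pairs left out (adjusted p from 0.267 to 0.318).

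Over time on HFD, 3 of the 9 genes had a falling slope past the threshold in a fit common to both genotypes, against 5.55% of all genes (0.151% upwards and 5.40% downwards). The slope is a straight line over months and does not mean a fall at each step. Hspb6 fell by 0.41 ± 0.08 per month on the log2 scale (adjusted p = 0.0484 by limma), Hspb8 by 0.21 ± 0.03 (adjusted p = 0.0332) and Hspa2 by 0.15 ± 0.02 (adjusted p = 0.0342). All 9 estimates were below 0, as were those of 5838 of all 9253 genes. The median of the 9 was -0.20 against -0.01 for all genes. Hspa1a, at -0.24 ± 0.05 (adjusted p = 0.0567), and Hspb1, at -0.40 ± 0.11 (adjusted p = 0.0835), did not pass. Without KO 4M, Hspb6 (-0.25) and Hspb8 (-0.16) still passed and Hspa2 did not (-0.13, adjusted p = 0.0599). Over 15 alternatives the adjusted p ran from 0.0228 to 0.793 for Hspb6, from 0.0108 to 0.793 for Hspb8 and from 0.0124 to 0.815 for Hspa2. With summed UMIs or thinned cells, or with any diet pair left out, 0 of the 9 passed.

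A fit over all 8 libraries then gave each genotype its own slope, with the scatter of both genotypes pooled for standard errors and p-values. In KO, 6 of the 9 genes fell per month of HFD, against 22.5% of all genes in either direction, 6.80% upwards and 15.7% downwards. These were Hspb6 (-0.61 ± 0.05 per month, adjusted p = 0.00971 by limma), Hspb1 (-0.59 ± 0.12), Hspa1a (-0.30 ± 0.07), Cryab (-0.29 ± 0.07), Hspb8 (-0.24 ± 0.04) and Hspa2 (-0.17 ± 0.03), the last 5 with adjusted p from 0.0255 to 0.0414. Hspb7, at -0.37 ± 0.11 (adjusted p = 0.0680), Hspa1b, at -0.06 ± 0.06, and Hspa8, at -0.05 ± 0.06, did not pass. By the KO slope of the same fit 17 of 18 contractile genes fell and 16 of 16 tested chondrocyte and bone genes rose. For those of the latter that were listed in KO 4M only, a rise was fixed in advance. Without KO 4M, 0 of the 9 passed, as did 0 of all 9253 genes (1537 at an unadjusted p under 0.05, by limma), and Hspb7 turned to 0.11. The adjusted p of Hspb6 was then 0.134, within 0.00444 to 0.160 over its 13 alternatives.

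By the Apoe slope of the same fit over 8 libraries 0 of the 9 genes passed, as did 0 of all genes (0.00%; 1165 at an unadjusted p under 0.05, by limma, among them Hspb6, Hspb8, Hspa2 and Hspa8). The estimates were below 0 for 9 of 9, as they were for 7171 of all 9253 genes. Those of the 9 ran from -0.22 ± 0.06 per month for Hspa8 and -0.21 ± 0.05 for Hspb6 to -0.02 for Hspb7 and Hspa1b.

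The slopes of the 2 genotypes were compared directly as well. The difference, KO minus Apoe, passed for 0 of 9 genes and for 0 of all genes (0.00%; 1954 at an unadjusted p under 0.05, by limma). The most negative difference was that of Hspb6, at -0.40 ± 0.07 per month (adjusted p = 0.226 by limma). Hspa8 alone had a difference above 0, at 0.18 ± 0.08 (adjusted p = 0.265). Falls past the threshold in KO and not in Apoe are therefore not shown to differ between the genotypes.

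At single diets each side is 1 library and no test exists. On ND, 1M and 2M, 0 of the 9 genes differed by 1 or more on the log2(CPM + 1) scale. Few of all genes did so (KO lower by at least 1 in 1.37%, 0.770% and 2.17%, higher in 0.749%, 0.760% and 1.16%). Some of the 9 still lay far from most genes. Hspa2 was at -0.89, -0.57 and -0.90 on these diets, at percentiles 1.81, 3.64 and 3.21 among genes listed in both libraries. Hspb6 was at 0.60, 0.39 and 0.24, at percentiles 96.9, 92.6 and 77.6. On ND, KO was higher for Hspb6 (0.60) and Cryab (0.43), and lower for Hspa2 (-0.89), Hspb8 (-0.49) and Hspa1a (-0.48). At 2M, KO was higher for all small heat shock genes but Hspb8 (-0.32), by 0.24 to 0.43. Of the HSP70 genes, KO was then lower for Hspa2 (-0.90), Hspa8 (-0.46) and Hspa1b (-0.08), and higher for Hspa1a (0.20).

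After 4 months of HFD, 7 of the 9 genes were lower in KO by at least 1, against 17.0% of genes (6.59% were higher by at least 1), and the median of all genes was itself at -0.23. Hspb7 differed by -3.87, a 15.2-fold lower level in KO. Hspb6 differed by -2.28, Hspa2 by -1.83, Hspb1 by -1.72, Hspb8 by -1.45, Hspa1a by -1.40 and Hspa1b by -1.04. Cryab differed by -0.90 and Hspa8 by 0.05. On means of the deposited log2 values per cell, which understate changes of sparse genes, only Hspb1 (-1.58) and Hspb7 (-1.37) passed 1. The library labelled KO 4M is the one whose smooth muscle markers were low (1490 CPM, 23284 in Apoe 4M).

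**Figure D3:**
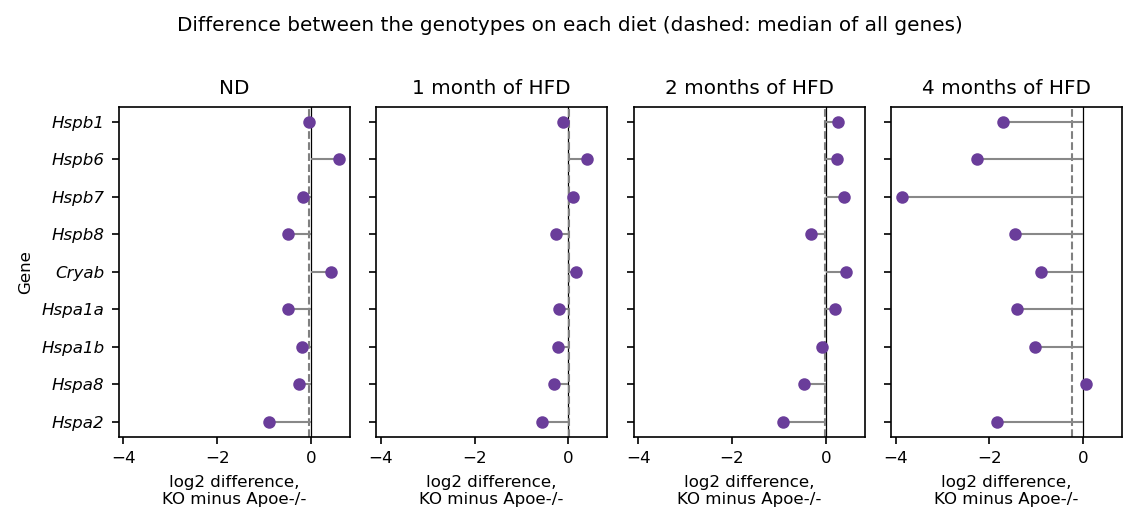
Difference of log2(CPM + 1) between the KO and the Apoe-/- library on each diet (x axis) for each gene (y axis), with the median of all genes as a dashed line. Points lie between -0.90 and 0.60 on ND, 1M and 2M, and at 4M between -3.87 (Hspb7) and 0.05 (Hspa8).

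Cells of the same library were then compared, which sets aside differences between libraries. In each library the third of cells with the largest share of UMIs from 18 contractile genes (Acta2, Myh11, Tagln and others) was set against the third with the smallest, giving 1 difference per library. The 8 differences were tested against 0 with limma across 9182 genes, and for each of the 9 also with an exact two-sided sign-flip permutation test over libraries, whose smallest possible p is 0.00781. In this comparison 6 of the 9 genes passed, where 44.6% of all genes did (18.0% higher and 26.6% lower in contractile-rich cells).

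Of the 5 small heat shock genes, 4 were higher in contractile-rich cells, all but Hspb8. Hspb6 was higher by 1.07 ± 0.16 (SE, 8 libraries; adjusted p = 0.00191 by limma), from 0.61 in Apoe 1M to 2.13 in Apoe 4M. Hspb7 was higher by 0.95 ± 0.20 (adjusted p = 0.00460 by limma), from 0.40 in KO ND to 2.48 in KO 4M, where it stood at 55.4 CPM in the contractile-rich and 9.11 in the contractile-poor cells. Hspb1 was higher by 0.45 ± 0.11 (adjusted p = 0.00882 by limma). These 3 were higher in 8 of 8 libraries, with an exact sign-flip p of 0.00781 each. Cryab was higher by 0.29 ± 0.08 (adjusted p = 0.0181 by limma), in 7 of 8 libraries, with KO ND at -0.02.

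Of the HSP70 genes, 2 were lower in contractile-rich cells. Hspa1b was lower in contractile-rich cells by -0.73 ± 0.14 (adjusted p = 0.00342 by limma) and Hspa8 by -0.31 ± 0.08 (adjusted p = 0.0138 by limma), each in 7 of 8 libraries. Hspa1a was at -0.40 ± 0.18 (adjusted p = 0.0880), lower in 7 libraries (-0.93 to -0.32) and higher by 0.98 in KO 4M. Hspb8, at -0.31 ± 0.12 (adjusted p = 0.0564), was also lower in the 6 libraries other than 4M (-0.61 to -0.22) and at 0.04 and 0.43 in the 4M libraries. Hspa2 was at -0.13 ± 0.12, with 0.48 and 0.38 in Apoe 4M and KO 4M and values below 0 in the other 6. In KO 4M all 4 HSP70 genes had values above 0.

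Without KO 4M, Hspa1a (-0.59, adjusted p = 0.000236 by limma) and Hspb8 (-0.42, adjusted p = 0.00329 by limma) passed as well, which makes 8 of the 9. Without both 4M libraries all 9 passed. Calls over all genes were 1870 higher and 3199 lower of 9149 without KO 4M, and 1711 and 3445 of 9134 without both. Over its 6 alternatives the adjusted p of Hspa1a ran from 0.000236 to 0.150 and that of Hspb8 from 0.000515 to 0.127. The contractile-poor cells also carried more chondrocyte and bone UMIs: 16500 against 242 CPM in Apoe 4M, 8496 against 192 in KO 2M, 50074 against 35780.5 in KO 4M, and 74.8 to 143 against 24.3 to 48.1 in the other 5. They also carried more UMIs of 18 immediate-early stress genes in 8 of 8 libraries, from 12505 against 12458 CPM in Apoe 4M to 13247 against 9342 in KO 2M, and 8 of these 18 genes were lower and 1 higher in contractile-rich cells. The part of either list in the differences of the heat shock genes was not tested. The differences of Hspb6 and Hspb7 within those other 5 libraries were 0.61 to 0.96 and 0.40 to 0.72.

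A second ranking used 18 immediate-early genes known from tissue digestion and stress (Fos, Jun, Egr1, Atf3, Dusp1 and others, none of them a heat shock gene). Here 7 of the 9 genes passed, where 27.3% of all genes did (16.3% higher and 11.1% lower in stress-rich cells). The median of the 9 genes was 0.52 and that of all genes 0.04.

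All 4 HSP70 genes were higher in stress-rich cells. Hspa1a was higher by 1.36 ± 0.19 (adjusted p = 0.000664 by limma), in 8 of 8 libraries, from 0.77 in Apoe 2M to 2.47 in KO 4M. It stood at 582 CPM in the stress-rich and 104 in the stress-poor cells of KO 4M, and at 1408 and 632 in those of Apoe ND. Hspa2 was higher by 0.67 ± 0.11 and Hspa8 by 0.61 ± 0.08 (adjusted p = 0.00162 and 0.000682 by limma), both in 8 of 8 libraries. Hspa1b was higher by 0.60 ± 0.19 (adjusted p = 0.0372 by limma), in 6 of 8 libraries. Its call was lost in 4 of 6 alternatives, among them that without KO 4M (0.44, adjusted p = 0.0651 by limma). The adjusted p ran from 0.0213 to 0.0904 over the 6.

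The small heat shock genes split. Hspb8 (0.52 ± 0.07, adjusted p = 0.000674 by limma) and Hspb1 (0.41 ± 0.09, adjusted p = 0.00901 by limma) were higher in stress-rich cells in 8 of 8 libraries. Cryab was lower, by -0.27 ± 0.06 (adjusted p = 0.0114 by limma), in 7 of 8 libraries. Hspb7, at -0.21 ± 0.07 (adjusted p = 0.0514 by limma), and Hspb6, at -0.09 ± 0.08, did not pass. Hspb1 was thus the one gene of the 9 that was higher in both contractile-rich and stress-rich cells. Contractile UMIs summed to 39014 to 69091 CPM in the stress-rich and 34313 to 66784 in the stress-poor cells of 7 libraries, and at 3026 and 4628 in those of KO 4M. Chondrocyte and bone UMIs stood at 1561 against 14732 in Apoe 4M and at 1019 against 6328 in KO 2M, and their part in these differences was not tested. Median depth was 9086 UMIs in the stress-rich and 12315 in the stress-poor cells of KO 4M, and cells thinned to 2900 UMIs gave 1.32 for Hspa1a.

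**Figure D4:**
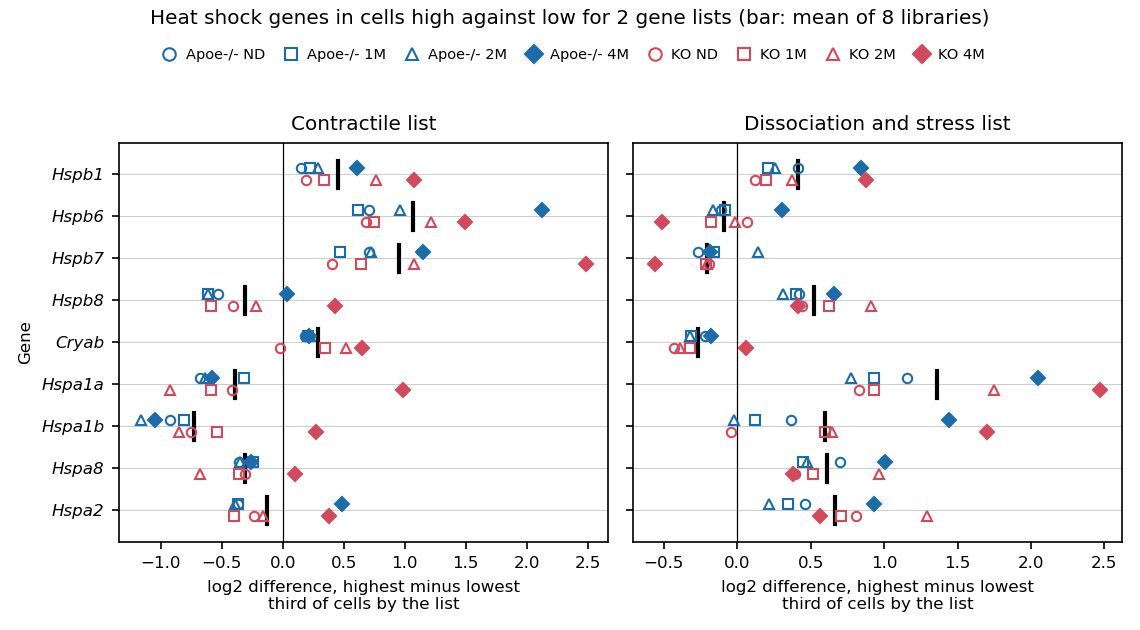
Difference of log2(CPM + 1) between the cells richest and poorest in contractile genes (left) and in immediate-early stress genes (right) for each gene; each symbol is a library (blue Apoe-/-, red KO, filled 4M) and the black bar is the mean of the 8 libraries. Hspb6 and Hspb7 lie to the right of 0 in all 8 libraries on the left panel, and Hspa1a, Hspa8, Hspa2, Hspb8 and Hspb1 do so on the right panel.

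Pairs of genes were also correlated over the single cells of each library, on log2 values of thinned cells. These correlations share the depth and composition of a library and are given as a description. In each library the pair with the highest value held Hspa1a. Hspa1a and Hspa1b gave Pearson's r of 0.186 to 0.486 in 7 libraries (median 0.242) and 0.5345 in KO 4M, though reads that fit both copies would add to it. Hspa1a with Hspa8 gave 0.245 to 0.363 in 7 libraries (median 0.290) and 0.156 in KO 4M, and Hspb1 with Hspa1a gave 0.217 to 0.335 and 0.400. Small heat shock genes went together little: Hspb6 with Hspb7 gave 0.0172 to 0.169 (0.2135 in KO 4M), and Hspb6 with Hspb8 gave -0.0972 to 0.0420 (0.0328 in KO 4M).

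The other chaperones gave a mixed picture beside these genes. Their counts stand beside 5.40% of all genes that fell in the common slope, 16.3% higher and 11.1% lower in stress-rich cells, and 18.0% higher and 26.6% lower in contractile-rich cells. Hspb2, the divergent neighbour of Cryab, was 1 of the 2 tested genes among 6 other small heat shock genes. It read 108 to 138 CPM in Apoe and 145, 115, 130.1 and 20.2 in KO, fell within KO by 0.20 ± 0.03 per month (adjusted p = 0.0210 by limma) and was higher in contractile-rich cells by 0.67 ± 0.10 (adjusted p = 0.00191 by limma). Of 8 tested genes among 11 other HSP70 family members, 2 fell in the fit common to both genotypes: Hspa4 and Hsph1, both HSP110-type exchange factors, by 0.09 ± 0.02 and 0.08 ± 0.01 per month (adjusted p = 0.0407 and 0.0437 by limma). In stress-rich cells 2 of the 8 were higher, Hspa5, the HSP70 of the endoplasmic reticulum, by 0.61 ± 0.08, and Hsph1 by 0.61 ± 0.12. In contractile-rich cells 4 of the 8 were lower, among them Hspa9 of mitochondria (-0.46 ± 0.10) and Hspa5 (-0.34 ± 0.09).

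Among 23 tested J-domain genes of 24, Dnaja1 fell with months of HFD by 0.21 ± 0.04 (adjusted p = 0.0465 by limma). Dnajb1, the HSP40 induced with Hspa1a, was higher in stress-rich cells by 1.41 ± 0.13 (adjusted p = 5.73e-05 by limma) and lower in contractile-rich cells by -0.64 ± 0.08. It stood at 371 CPM in KO 4M against 213 in Apoe 4M. On ND, 1M and 2M it was lower in KO, at 225, 264 and 195 CPM against 468, 377 and 347 in Apoe. In all, 5 J-domain genes were higher and 3 lower in stress-rich cells, with Dnajb4 at 0.81 ± 0.08, Dnaja1 at 0.79 ± 0.10 and Dnajc15 at -0.39 ± 0.07. Of 14 tested exchange factors and co-chaperones out of 16, 3 fell with months (Fkbp4, Stip1 and Bag2, by 0.07 each). Bag3, which links Hspb8 to HSP70, was higher in stress-rich cells by 0.58 ± 0.11 and lower in contractile-rich cells by -0.60 ± 0.13.

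Of 14 HSP90 and chaperonin genes, Hsp90aa1 (-0.20 ± 0.02 per month, adjusted p = 0.0289 by limma) and Hsp90ab1 (-0.10 ± 0.02, adjusted p = 0.0386 by limma) fell with months of HFD. Both were higher in stress-rich cells, by 0.76 ± 0.11 and 0.36 ± 0.06. Of 3 tested genes out of 4 (Hsf1, Hsf2, Hsf4 and Hsbp1), Hsf2 fell with months (-0.03 ± 0.01, adjusted p = 0.0471 by limma) and was lower in contractile-rich cells by -0.67 ± 0.14.

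The genes whose levels followed each of the 9 most closely over the 8 libraries were named by Pearson's r of log2(CPM + 1) among 7994 genes listed in all 8. For Hspb1 these were Podxl2 (r = 0.997), Rnf187 and Cnn1, for Hspb6 Letmd1 (0.997), Prkag2 and Gtf2a2, and for Hspb7 Chd3 (0.998), Hes6 and Nbeal1. For Hspb8 they were Rtn3 (0.994), Ppp2r5e and Nasp, and for Cryab Gnb2 (0.991), Ppil1 and Atp5h. For Hspa2 they were Anapc7 (0.997), Pim1 and Zmym2, for Hspa1a Tcaf1 (0.979), Ankrd46 and Abtb1, for Hspa1b Rmdn1 (0.975), Rdx and Ap3d1, and for Hspa8 Sap18 (0.974), Rhot1 and Prdm4. The 8 points share a depth scale. Without KO 4M, 5 of the 27 genes were named again (Podxl2, Letmd1, Anapc7, Rmdn1 and Rdx). Among the 9 themselves, Hspb1 and Hspb7 gave r = 0.953 over 8 libraries and -0.13 without KO 4M, whereas Hspa1a and Hspa1b gave 0.665 and 0.859.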

How the data were processed

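Reads were handled with UMI-tools, STAR, featureCounts and Subread 1.6.0, on GRCm38, per the submitters' processing notes; their roles and filters are not given in the sources used here. All 6 deposited tables (4 by diet, 2 by time course) hold log2 values per gene and cell, scaled per cell by the authors. Undoing the log2 and the scale of each cell gave whole UMIs for 100% of values (tolerance 0.01). A gene seen in fewer than about 5% of a library's cells is listed at 0. Cells were assigned to 8 libraries by the ending of the cell name, with 0 cells left over, and no doublet caller was run. Levels are CPM (UMIs per 1000000) summed over a library's cells, with 1 added before log2.

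Because the tables hold log2 values, effects over libraries were fitted with limma 3.58.1 (R 4.3.3) on the mean log2 value per library, across 9253 genes, with Benjamini-Hochberg adjustment and a threshold of 0.05. The genotype fit used the diet tables with diet as a factor, and the slopes used the time-course tables with genotype, months and their product. Cells within a library were compared between the third ranked highest and the third ranked lowest by a gene list, giving 1 difference per library. The test code was tested on simulated data. Python 3.11.15, NumPy 2.4.6, SciPy 1.17.1, pandas 2.3.3, Biopython 1.88 and matplotlib 3.10.9 were used. Identifiers were matched to symbols for 11439 of 11447. All 9 genes are named. Of each other list up to 4 genes per comparison past the threshold were named by smallest p, and for each of the 9 the 3 genes most alike over libraries. The 9 genes and the lists were chosen with earlier results of these data known. Replicate animals per library are unknown, so p-values measure only the spread between libraries. Alternatives covered the measure, scaling, depth, gene filter, libraries and cells used.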

Additional observations from a re-analysis of the deposited data

How the results depend on the processing

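No paired analysis was possible because each group has 1 library and the labels give no replicate numbers to share; the genotype fit already has diet as a factor. The planned count test was not run, and the recovered UMIs were instead summed per library and tested with limma. Of the 9 genes, the number passing in the genotype comparison went from 1 to 0 with summed UMIs, with trimmed-mean factors, with thinned cells and without the ND, 1M or 2M libraries. In the slope common to both genotypes it went from 3 to 0 with summed UMIs, with trimmed-mean factors, with thinned cells, without the libraries of any 1 diet, with HFD set against ND and with the rank of time, and to 5 without scaling per cell and with values of the other tables. In the difference of slopes it went from 0 to 1 without the 2M libraries (Hspb6, adjusted p = 0.0470 by limma, over a range of 0.0470 to 0.906). Within KO it went from 6 to 4 with summed UMIs, with or without trimmed-mean factors (Cryab and Hspa1a lost), to 1 with thinned cells and to 0 without KO 4M, without the ND, the 1M or the 4M libraries, and without the 2M libraries Hspa2 was lost and Hspb7 gained. At 4M the 7 genes lower by at least 1 became 6 with 10 added in place of 1 and 2 with differences of mean log2 values. The cause of these changes was not tested; leaving out libraries also leaves fewer degrees of freedom.

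Over all genes, the genotype calls (2 higher, 12 lower) became 90 higher and 150 lower without KO 4M, and 0 when the 1M pair or the 2M pair was left out (844 and 701 at an unadjusted p under 0.05, by limma). The slope common to both (14 higher, 500 lower) gave 24 higher and 1354 lower without scaling per cell, 25 and 1321 with the other tables, and 0 with trimmed-mean factors (2249 at an unadjusted p under 0.05, by limma). Within KO (629 higher, 1455 lower) there were 1015 higher and 1496 lower with trimmed-mean factors, 324 and 1541 without scaling per cell, 219 and 328 with thinned cells, 1210 and 1850 without the 2M libraries, and 0 without KO 4M (1537 unadjusted). The difference of slopes gave 1 higher and 6 lower without the 2M libraries. Thinned cells gave 721 higher and 531 lower in the stress comparison, against 1493 and 1018.

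Estimates that changed sign were those of genes that did not pass. The genotype effect of Hspb6 became -0.26 with summed UMIs, -0.20 with trimmed-mean factors, and -0.17, -0.0488 and -0.0215 without the ND, 1M and 2M libraries. That of Hspb7 became 0.12 without KO 4M or both 4M libraries, and that of Cryab -0.0804 and -0.0518 without the ND and the 2M libraries. The common slope of Hspb7 became 0.00187 without KO 4M and 0.0178 without both 4M libraries, and that of Hspa1b 0.000745 with trimmed-mean factors and 0.0325 without the ND libraries. The difference of slopes without KO 4M became 0.11 for Hspb1, 0.13 for Hspb7, 0.10 for Hspb8, 0.0417 for Cryab and 0.0567 for Hspa2. Without both 4M libraries it became 0.0709 for Hspb1, 0.18 for Hspb7, 0.0489 for Hspb8, 0.0105 for Hspa2, 0.19 for Hspa1a, 0.0121 for Hspa1b and -0.11 for Hspa8. Within Apoe the slope of Hspb7 became 0.0410 with summed UMIs, 0.0483 with trimmed-mean factors, 0.00847 with thinned cells and 0.00522 without ND, and that of Hspa1b 0.0733, 0.0806, 0.00927 and 0.0584 under the same 4. The Apoe slope of Cryab became 0.0174 without 4M. Within KO, Hspb7 became 0.11 without KO 4M or both 4M libraries, and Hspa1b 0.00649 without ND. In the comparisons of cells within libraries the direction of all 9 genes held under each of 6 alternatives.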
